A study of Mus musculus with 8 samples.

Results

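Aminoacyl-tRNA synthetases attach each amino acid to its transfer RNA, and 37 of their genes were examined in the brains of Nsun5 knockout (KO) and wild-type (WT) mice. They were found by gene name among the 54532 genes of the deposited tables, and all 37 were present, 21 coding for cytosolic and 16 for mitochondrial enzymes. Ribosome profiling sequences the RNA fragments that translating ribosomes shield from nuclease, called footprints here. It was done on whole brain of male mice aged 3 months, with 4 libraries from mice labelled Nsun5-KO and 4 from mice labelled WT, each with an mRNA library that carries its name. Both genotypes came from the same litter per the labels, no other allele or agent is named apart from the anaesthetic pentobarbital given to both, and NSUN5 is an enzyme that methylates a cytosine of large-subunit ribosomal RNA. The labels mention 5 mice per genotype without tying a library to a mouse and do not say which part of the gene was removed, so the p-values cover the spread from library to library, which may be technical.

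A synthetase first activates its amino acid with ATP and then joins it to the tRNA, and the ribosome consumes the product. Cytosolic enzymes serve the proteins encoded in the nucleus, mitochondrial enzymes serve the few proteins encoded in mitochondrial DNA, and most amino acids have a separate gene for each. In mammals Gars and Kars make both forms of their enzyme, and 8 cytosolic members (Dars, Eprs, Iars, Kars, Lars, Mars, Qars and Rars) sit together in the multi-synthetase complex. Class I and class II synthetases have unrelated catalytic folds. In humans, variants in cytosolic members such as GARS and YARS cause peripheral neuropathy, variants in DARS, RARS and EPRS cause hypomyelination, and variants in mitochondrial members such as EARS2 and AARS2 cause disease of the white matter. Many cytosolic synthetase genes are targets of ATF4, the transcription factor that is made when amino acids are short.

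Sites with the ATF4 response element core TGATGNAA, searched on both strands from 250 bases before to 50 bases after the RefSeq transcription start (build GRCm38.p6, the same assembly as mm10), were found in cytosolic members and are shown for that reason. The table held such a window for 28 members. The core was in 5 of 14 cytosolic windows and in 0 of 14 mitochondrial ones, against 3.97% of all 32851 windows (1304). The difference between compartments was not tested, and most cytosolic windows lacked the core. No other motif was searched. A match is a run of letters and not evidence that a factor binds there. A site of each of the 5 genes is given with 11 bases on either side and the core in capitals, on the strand that reads TGATGNAA.
Aars, chr8:111033840-111033869, minus strand: tcagagcgctcTGATGAAAagtgacccgct
Gars, chr6:55037960-55037989, minus strand: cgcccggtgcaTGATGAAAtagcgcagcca
Iars, chr13:49682126-49682155, minus strand: gcgtctggaggTGATGCAAtactgacagtg
Tars, chr15:11399655-11399684, plus strand: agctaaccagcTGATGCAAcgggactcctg
Yars, chr4:129189895-129189924, plus strand: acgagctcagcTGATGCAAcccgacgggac
The cores in Gars and Tars ended 23 and 8 bases before the start. Those shown for Aars, Iars and Yars began at transcribed bases 10, 8 and 4. Windows of Cars, Hars, Lars, Nars, Rars, Vars, Wars, Hars2 and Pars2 were not analysed here.

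Counts assigned to genes totalled 0.586 to 1.30 M (M, mega) per footprint library in KO and 1.20 to 3.49 M in WT, with 0.233 to 0.847 M on protein-coding genes in KO and 0.792 to 1.47 M in WT. The mRNA libraries held 16.2 to 17.8 M in KO and 15.6 to 17.4 M in WT. The synthetases together had 802 to 3287 footprint counts in KO libraries and 3038 to 5194 in WT libraries, and the median mitochondrial member had 4.5 to 16 in KO and 14.5 to 24 in WT. In mRNA, Nsun5 itself had 102, 124, 83 and 110 counts in KO libraries 1 to 4 and 91, 82, 103 and 109 in WT libraries 1 to 4, so its count did not separate the genotypes. Neuron markers were abundant in this tissue labelled brain, and liver markers summed to 0.83 to 31.1 counts per mega-count (CPM, of the scaled library size) of mRNA in KO and 0.80 to 2.02 in WT, with Serpina1a at 0 in 6 of 8 libraries. Oligodendrocyte and myelin markers summed to 4585 to 6320 CPM of mRNA in KO and 7079 to 7758 in WT, with 8 of 8 lower in KO. Neuron markers summed to 6471 to 7238 CPM in KO and 5370 to 6081 in WT, with 6 of 6 higher. Choroid plexus markers varied from 47.9 to 1173 CPM in KO and from 305 to 1149 in WT, with 5 of 5 lower. In footprints the oligodendrocyte and myelin markers summed to 1734 to 2182 CPM in KO and 2480 to 2989 in WT, with 8 of 8 lower, and the neuron markers to 2888 to 3194 CPM in KO and 2750 to 4425 in WT, with 6 of 6 lower. In whole tissue, fewer cells of a type and less RNA per cell cannot be told apart, and the part of these markers in the synthetase values was not tested.

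Cytosolic synthetase mRNAs were the more abundant in this brain tissue. The median cytosolic member had 13.0 ± 0.902 RPKM (reads per kilobase of gene length and mega-read) in KO and 14.5 ± 1.19 in WT, and the median mitochondrial member 2.77 ± 0.112 in KO and 2.78 ± 0.158 in WT (SD, n = 4 each). The median coding gene with at least 1 RPKM in both kinds of library had 9.59 ± 0.0576 RPKM of mRNA in KO. That floor was not applied to the synthetase medians. Among all coding genes with any mRNA, the middle mitochondrial members Vars2 and Mars2 stood above 47.6% and 47.4%. Nars, the asparaginyl enzyme, was highest of all. It had 88.1, 89.2, 85.8 and 86.9 mRNA RPKM in KO libraries 1 to 4 and 90.1, 77.6, 89.0 and 84.8 in WT libraries 1 to 4, with overlapping groups. After it came Gars at 46.6, Hars at 40.1, Sars at 35.1 and Wars at 30.9 RPKM over all libraries, the enzymes for glycine, histidine, serine and tryptophan. In the plot of levels, libraries of neighbouring genes in this order often overlap.

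Farsa, the catalytic subunit of the phenylalanyl enzyme, was the lowest cytosolic member in mRNA. It had 4.51, 5.15, 4.56 and 4.84 RPKM in KO libraries 1 to 4 and 4.67, 4.35, 5.70 and 5.15 in WT libraries 1 to 4. Its partner subunit Farsb averaged 22.4 RPKM, so the 2 subunits of 1 enzyme stood apart in mRNA per length. The lengths were 4538 bases for Farsa and 2620 for Farsb. Among mitochondrial members Cars2 was lowest, at 1.01, 1.27, 1.15 and 1.30 RPKM in KO libraries 1 to 4 and 1.11, 1.32, 1.12 and 1.18 in WT libraries 1 to 4. Lars2, Iars2, Yars2 and Rars2 led that class, with means of 7.15, 6.51, 5.60 and 5.47 RPKM, and Lars2 held first place through 1 KO library described further on. Class II cytosolic enzymes had a median of 18.6 RPKM (11 genes) and class I ones 11.1 (9 genes, without Eprs, which holds both), with ranges that overlap.

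**Figure D1:**
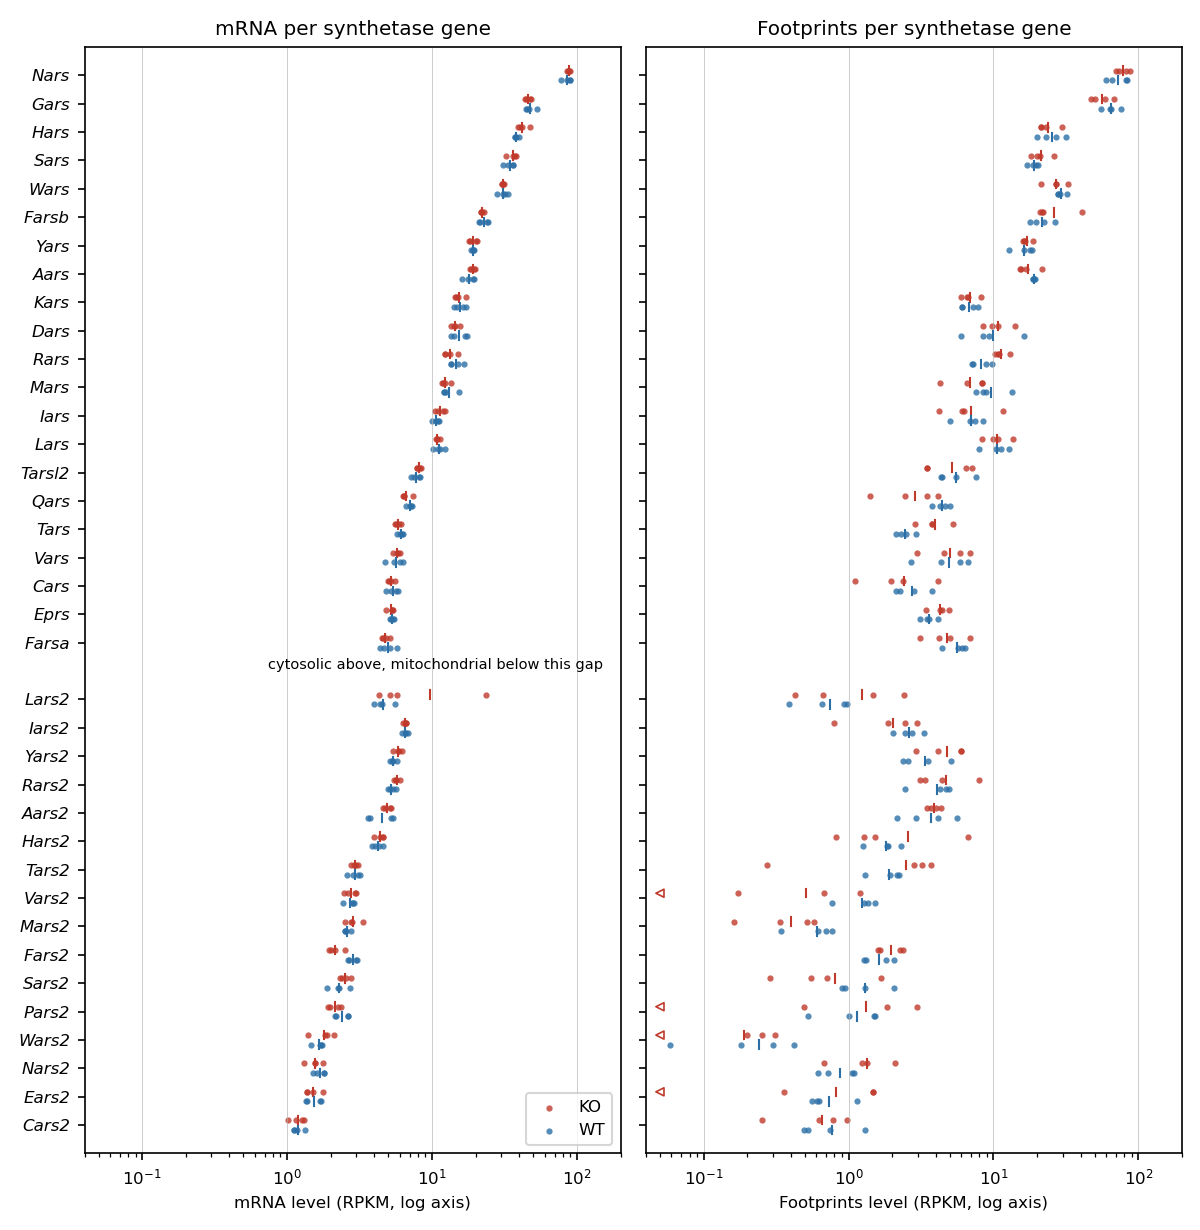
Level of each of the 37 synthetase genes in mRNA (left) and footprint (right) libraries, in RPKM on a log axis, with a point for each library, KO above WT within each gene, and a short vertical line at each group mean. Open triangles at the left edge are libraries with a value of 0. Cytosolic members, above the gap, reach 86.4 RPKM for Nars, and most mitochondrial members lie below them in both panels.

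In footprint RPKM every cytosolic gene exceeded the mitochondrial gene for the same amino acid, in 8 of 8 libraries for all 18 pairs examined. In mRNA RPKM 17 pairs did so in 8 of 8 libraries, and Lars over Lars2 in 7. RPKM divides by the annotated gene length, which differs between the genes of a pair, so these orders and ratios depend on it. Some pairs share a gene (Tars and Tarsl2 against Tars2, Farsa and Farsb against Fars2, Eprs against Ears2 and Pars2). The pair furthest apart in mRNA RPKM was Nars and Nars2. Its ratios were 56.2, 68.6, 48.2 and 55.5 in KO libraries 1 to 4 and 50.5, 48.2, 58.8 and 46.8 in WT libraries 1 to 4. Nars and Nars2 had lengths of 2632 and 6967 bases and averaged 3829.5 and 189.5 mRNA counts, which stand less far apart than the RPKM. The smallest ratio of mean RPKM, 1.54, was that of Lars and Lars2, at 1.85, 2.09, 0.458 and 2.62 in KO libraries 1 to 4 and 2.82, 2.05, 2.41 and 2.54 in WT libraries 1 to 4. KO library 3 was the only one of the 8 with more RPKM of Lars2 than of Lars, and the place of this pair rests on it. In the other 7 libraries Iars over Iars2 was the lower. In mRNA counts, not divided by length, Lars2 exceeded Lars in every library. The lengths were 11089 bases for Lars2 and 3856 for Lars. With KO library 3 included, Iars over Iars2 averaged 1.76 ± 0.161 in KO and 1.63 ± 0.0436 in WT (SD, n = 4 each). In footprints the ratio of mean RPKM ran between 1.45 for Tars over Tars2 and 130 for Wars over Wars2, and Wars2 had only 0 to 7 footprint counts per library.

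Footprints weighted the cytosolic enzymes further. They took 0.310 to 0.347% of coding footprints in KO and 0.318 to 0.352% in WT, but 0.170 to 0.183% of coding mRNA counts in KO and 0.172 to 0.184% in WT. Mitochondrial members took 0.0308 to 0.0412% of coding footprints in KO and 0.0313 to 0.0350% in WT, and 0.0322 to 0.0533% of coding mRNA counts in KO and 0.0315 to 0.0336% in WT. Counts of cytosolic over mitochondrial members were thus 8.42 to 10.6 in KO and 9.11 to 11.1 in WT for footprints, and 3.18 to 5.61 in KO and 5.12 to 5.83 in WT for mRNA. The mRNA values of 0.0533% and 3.18 were both of KO library 3, where Lars2 gave 4228 of the 8541 mitochondrial counts. The other KO libraries had 0.0322 to 0.0339% and 5.09 to 5.61.

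The footprint RPKM divided by the mRNA RPKM of a gene is a measure of ribosome load per transcript, relative to the other genes of the libraries. Its median over cytosolic members was 0.688, 0.820, 0.826 and 0.790 in KO libraries 1 to 4 and 0.734, 0.759, 0.676 and 0.720 in WT libraries 1 to 4. Over mitochondrial members it was 0.268, 0.531, 0.311 and 0.519 in KO libraries 1 to 4 and 0.497, 0.463, 0.429 and 0.463 in WT libraries 1 to 4. The cytosolic median was above the mitochondrial one in 8 of 8 libraries, while KO and WT overlapped within each class. Each ratio was taken between libraries of the same name, and whether these came from the same tissue was not tested. Ttr, a choroid plexus marker, had 17427, 1948, 4237 and 618 mRNA counts in KO libraries 1 to 4. Its footprint counts there were 678, 2470, 522 and 950, in another order. In WT libraries 1 to 4 it had 16028, 16459, 9947 and 4822 mRNA and 3422, 4994, 3387 and 1953 footprint counts. For the 9454 coding genes that averaged at least 1 RPKM in both kinds of library, the median ratio of a library averaged 0.439 over libraries. Only 10 of 16 mitochondrial members reached that floor, and Lars2, Vars2, Mars2 and Wars2 were among those that did not. This mean of library medians lay below the pooled ratios of 21 of 21 cytosolic members and of 11 of 16 mitochondrial ones. Kars was the closest cytosolic member, at 0.441. Set against the pooled ratios of the coding genes, Kars and the mitochondrial Sars2 (both 0.441) stood above 47.3% of them. On that scale both were thus below the median gene. Within a genotype there were exceptions. The KO mean of Qars (0.423) lay below the KO median gene (0.430), and the WT means of Tars (0.406) and Kars (0.438) lay below the WT median gene (0.448). Within the cytosolic class the 8 members of the complex had a median of 0.638 ± 0.105 in KO and 0.628 ± 0.0724 in WT, and the 13 outside it 0.797 ± 0.0752 in KO and 0.836 ± 0.0864 in WT (SD, n = 4 each).

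Gars had the highest ratio, at 1.56, 1.22, 1.06 and 1.05 in KO libraries 1 to 4 and 1.45, 1.41, 1.39 and 1.23 in WT libraries 1 to 4, above 97.0% of coding genes on the pooled value of 1.30. Farsa, Farsb and Aars followed at 1.07, 1.07 and 0.979. Farsb averaged 1.19 in KO and 0.954 in WT, with 1.87 in KO library 1, and Farsa 1.01 in KO and 1.14 in WT. On pooled values the lowest cytosolic members after Kars were Cars at 0.488 and Qars at 0.532. Aars2 at 0.808 and Rars2 at 0.804 led the mitochondrial class, and Mars2 at 0.185, Lars2 at 0.139 and Wars2 at 0.125 closed it. Mitochondrial class II enzymes had a median of 0.684 (7 genes) and class I ones 0.356 (9 genes), but both classes span a wide range and the cytosolic medians were 0.695 and 0.699. The gene length behind RPKM counts every annotated exon, whereas ribosomes cover the coding sequence. Both RPKM values of a gene use the same length, so the length itself cancels in the ratio. Mars2 and Lars2 had lengths of 11294 and 11089 bases, the longest of the mitochondrial class. The part of mRNA reads outside the coding sequence in these ratios was not tested.

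**Figure D2:**
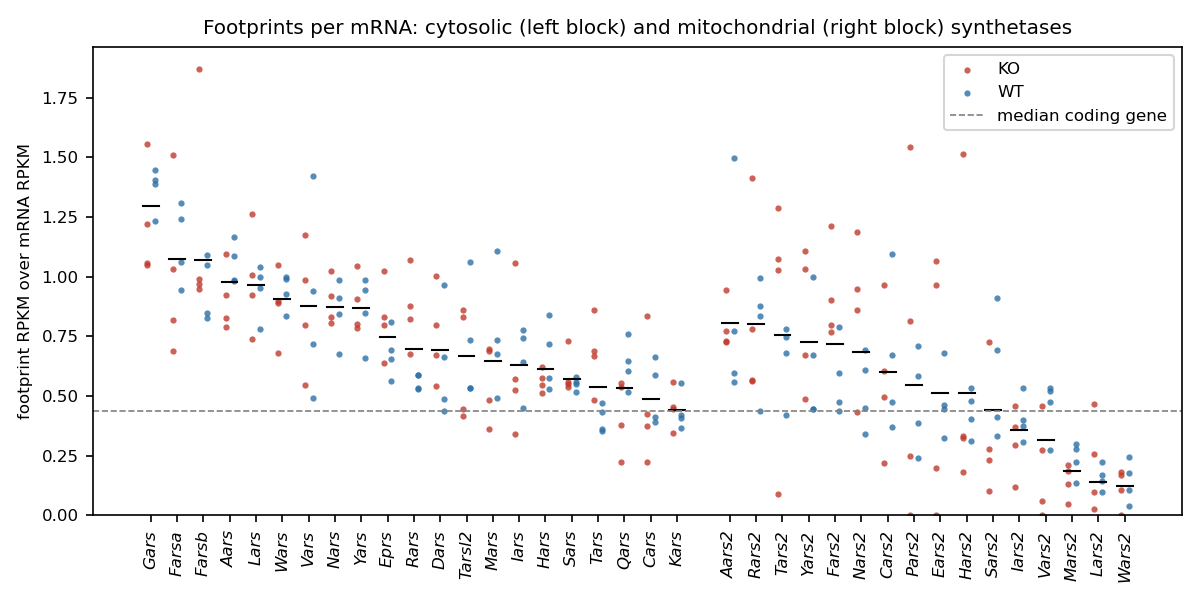
Footprint RPKM over mRNA RPKM for each synthetase gene, with 1 point per library (KO left of WT in each column) and a black bar at the value pooled over libraries. Cytosolic members, in the left block, run between 1.30 for Gars and 0.441 for Kars, and mitochondrial members between 0.808 for Aars2 and 0.125 for Wars2. The dashed line marks the median coding gene of a library, averaged over libraries and not taken from pooled values.

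The comparison of KO with WT asked whether loss of NSUN5 altered footprints, transcripts or footprints relative to transcripts of these enzymes. No synthetase gene passed an adjusted p of 0.05 in edgeR's quasi-likelihood test with Benjamini-Hochberg adjustment over all genes. The counts were 0 of 29 members tested in footprints, 0 of 37 in mRNA and 0 of 31 in footprints relative to mRNA. Neither did any other gene, so the background was 0% of 8476, 13058 and 9673 genes. At an unadjusted p under 0.05 stood 1 member in footprints (3.45%, against 5.52% of all genes), 1 in mRNA (2.70% against 10.5%) and 3 in footprints relative to mRNA (9.68% against 10.8%), shares near or below those of all genes. DESeq2 called 0 members in footprints (0.0472% of genes) and 0 in mRNA (0.94%), and 1 of 31, Tars, in footprints relative to mRNA (1.49% of genes, 0.879% upwards).

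For mRNA the data bound any change closely. The 95% interval of the fold change lay within 1.5-fold of no change for 21 of 21 cytosolic and 14 of 16 mitochondrial members, against 10312 of 13058 genes, the exceptions being Fars2 and Lars2. Cytosolic fold changes ran between −0.16 for Rars and 0.12 for Hars on the log2 scale, with a median of −0.045 against −0.0053 over all genes. Of them 7 of 21 were positive, against 48.6% of all genes, and the mitochondrial median was 0.016, with 8 of 16 positive. Summed mRNA of the cytosolic members was 1747 ± 44.9 CPM in KO and 1755 ± 44.8 in WT (SD, n = 4 each).

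Footprints were bounded less well, with 9 of 29 intervals within 1.5-fold and 21 of 29 within 2-fold. Over all 8476 genes these counts were 1745 and 5322. The cytosolic median was 0.023, against −0.0038 over all genes, with 12 of 21 positive, against 49.6% of all genes. Summed cytosolic footprints were 1456 ± 72.5 CPM in KO and 1468 ± 75.2 in WT, and summed mitochondrial footprints 158 ± 18.9 CPM in KO and 147 ± 8.90 in WT (SD, n = 4 each). Of the 16 mitochondrial members only 8 passed the filter on low counts, so the class is given without it, where its median was 0.041 in footprints (9 positive, 7 negative) and −0.089 in footprints relative to mRNA (6 positive, 10 negative). The medians of all genes without the filter were −0.11 and −0.090. With the filter the cytosolic median in footprints relative to mRNA was 0.044 against 0.0032 over all genes, with 12 of 21 positive, against 50.4% of all genes.

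**Figure D3:**
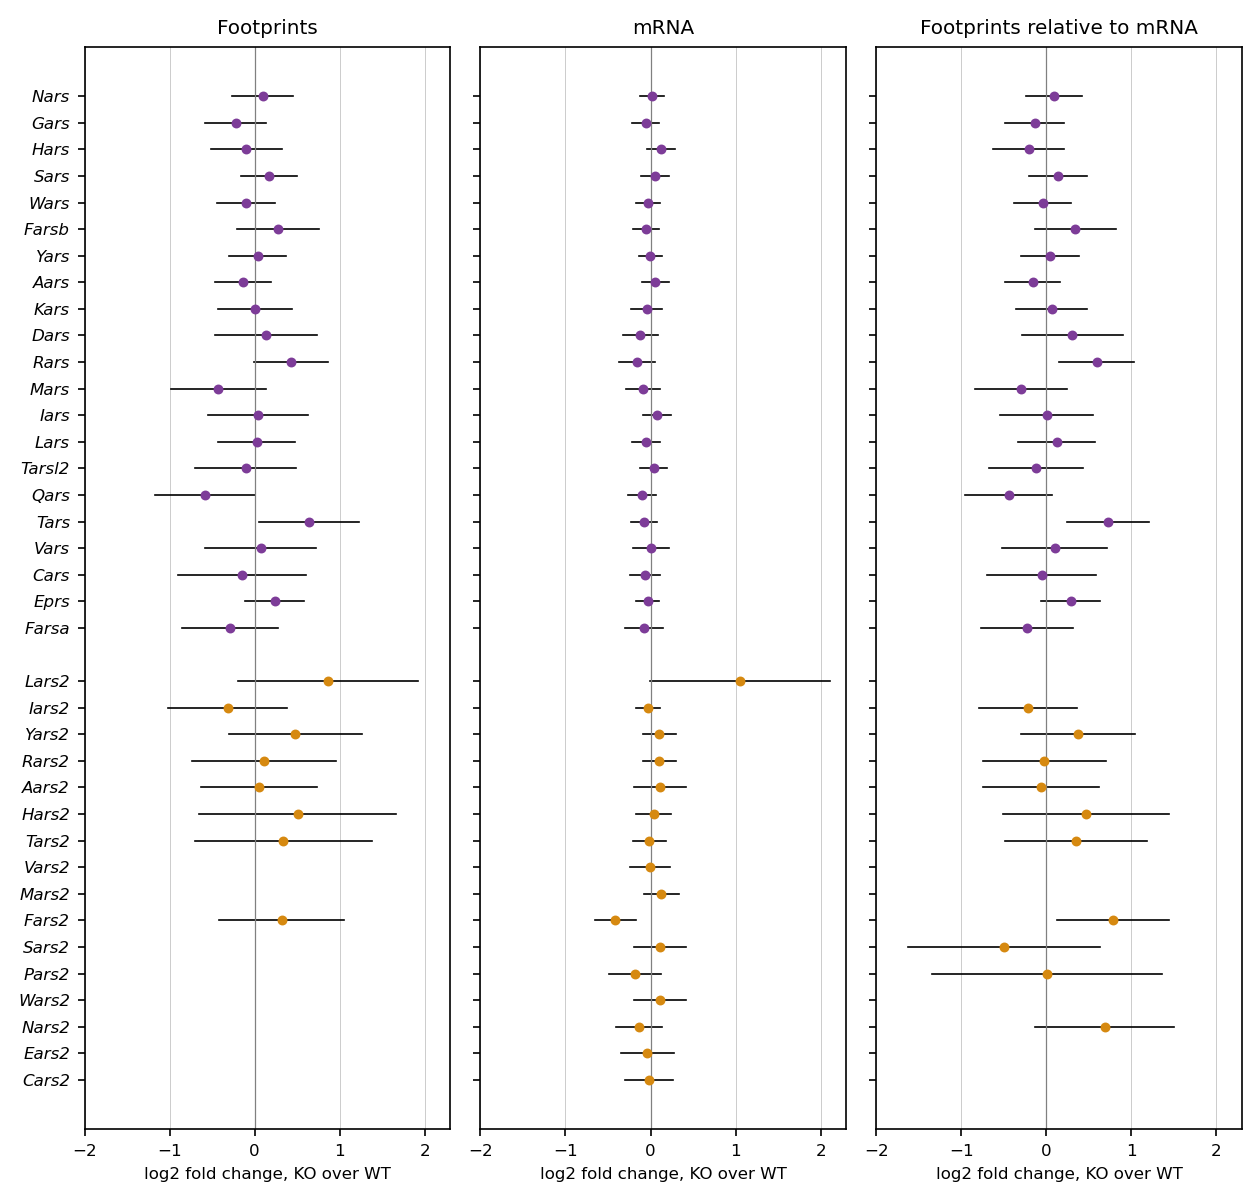
log2 fold change, KO over WT, of each synthetase gene in footprints, in mRNA and in footprints relative to mRNA, with 95% intervals from edgeR (purple cytosolic, orange mitochondrial, no point where the gene did not pass the filter on low values). The mRNA intervals are narrow around 0 apart from Lars2 and Fars2, and no member passed the adjusted threshold in any panel.

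Tars (chr15:11382301-11399665, minus strand) codes for the threonyl enzyme and had the lowest p in footprints. It had 23.2, 23.2, 32.7 and 17.7 CPM of footprints in KO libraries 1 to 4 and 18.1, 14.3, 15.4 and 13.2 in WT libraries 1 to 4. KO was the higher group except that its library 4 lay below WT library 1. The log2 fold change was 0.64 ± 0.27 (SE), with an unadjusted p of 0.035 and an adjusted p of 0.881 in edgeR. Its mRNA was 32.9, 33.6, 36.4 and 35.5 CPM in KO libraries 1 to 4 and 37.5, 38.3, 34.6 and 35.9 in WT libraries 1 to 4, groups that overlap. Per transcript its footprint ratio was 0.688, 0.666, 0.862 and 0.485 in KO libraries 1 to 4 and 0.472, 0.364, 0.433 and 0.356 in WT libraries 1 to 4, with every KO library above every WT library. Such a separation of the ratios was seen in 2 of 31 members (6.45%), Tars and Rars, against 4.49% of all 9673 genes, or 1.71% with KO above. The change relative to mRNA was 0.72 ± 0.23, with an adjusted p of 0.266 in edgeR, 0.0476 in DESeq2 and 0.675 in limma-voom. The call by DESeq2 thus stands on 17 to 44 footprint counts per KO library and on the choice of test. Tarsl2, the related gene for a second threonyl enzyme, had overlapping groups in both kinds of library, and reads shared between these genes were not examined.

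Rars (chr11:35808381-35834506, minus strand), the arginyl member of the complex, was the sole member whose KO and WT footprints did not overlap, 1 of 29 (3.45%) against 3.61% of all genes, or 1.57% with KO above. It had 36.6, 36.4, 44.2 and 34.3 CPM in KO libraries 1 to 4 and 30.0, 32.9, 24.5 and 24.1 in WT libraries 1 to 4. Its mRNA was 43.3, 40.0, 39.7 and 49.6 CPM in KO libraries 1 to 4 and 49.9, 54.5, 44.7 and 44.0 in WT libraries 1 to 4, which overlap, with KO on average the lower. The log2 fold changes were 0.43 ± 0.20 in footprints, −0.16 ± 0.10 in mRNA and 0.59 ± 0.21 in footprints relative to mRNA (SE), with adjusted p of 0.881, 0.588 and 0.337 in edgeR. Its KO footprint ratios of 0.823, 0.878, 1.07 and 0.676 all lay above the WT ratios of 0.587, 0.589, 0.534 and 0.530, the other separation counted above.

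Qars and Mars, the glutaminyl and methionyl members of the complex, had the lowest p among footprints that were lower in KO. Qars (chr9:108507706-108515941, plus strand) had 28.1, 23.7, 9.61 and 16.7 CPM in KO libraries 1 to 4 and 29.5, 34.4, 26.0 and 32.0 in WT libraries 1 to 4. The lowest value, in KO library 3, came from 5 counts, and KO library 1 overlapped WT. The log2 fold change was −0.58 ± 0.27 in footprints and −0.45 ± 0.24 relative to mRNA (SE), with adjusted p of 0.881 and 0.519 in edgeR. Mars had 23.2, 30.1, 15.4 and 29.4 CPM in KO libraries 1 to 4 and 30.6, 31.6, 27.1 and 48.2 in WT libraries 1 to 4, with overlap, for a log2 fold change of −0.43 ± 0.26 in footprints and −0.30 ± 0.26 relative to mRNA. Without WT library 4 these were −0.21 and −0.047. Rars was named for a low p with KO higher and these subunits for a low p with KO lower, so their opposite signs follow from that choice. Of the 8 complex members, 6 were positive and 2 negative in footprints, against 49.6% positive over all genes. The complex as a whole summed to 325 ± 28.3 CPM of footprints in KO and 320 ± 29.8 in WT (SD, n = 4 each).

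Gars, whose window holds the ATF4 core shown above, had 220, 191, 154 and 162 CPM of footprints in KO libraries 1 to 4 and 249, 212, 208 and 180 in WT libraries 1 to 4. The groups overlap, and the log2 fold change was −0.22 ± 0.17 (SE, adjusted p = 0.903 in edgeR). Aars, the alanyl enzyme, had 162, 211, 148 and 149 CPM in KO libraries 1 to 4 and 187, 183, 187 and 183 in WT libraries 1 to 4, with 1 KO library above and the others below WT. Its change relative to mRNA was −0.16 ± 0.16. The 5 genes with the core did not share a sign in footprints, Tars, Iars and Yars being positive and Gars and Aars negative. Iars at 0.042 ± 0.27 and Yars at 0.036 ± 0.16 (SE) lay close to no change.

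**Figure D4:**
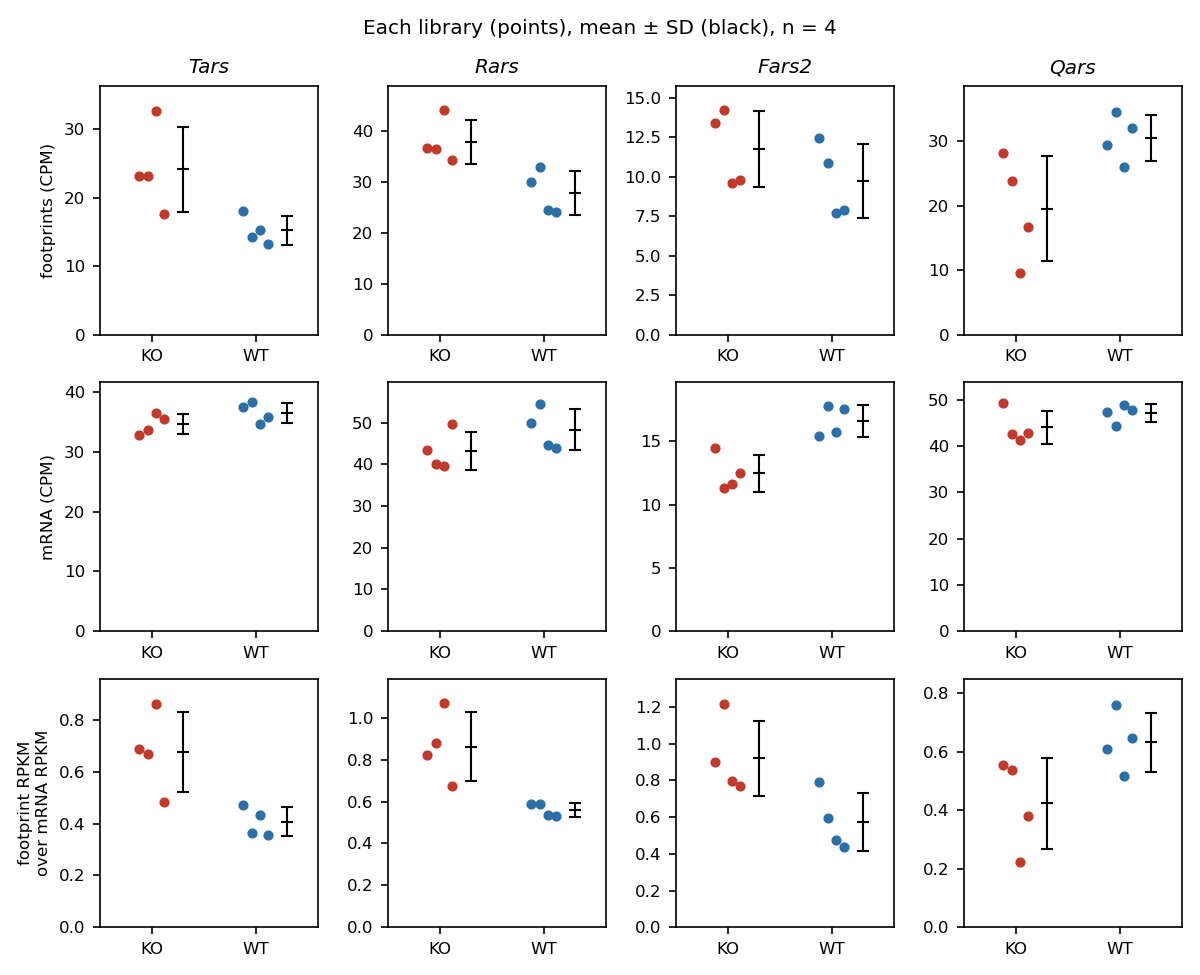
Footprints and mRNA in CPM and the ratio of footprint to mRNA RPKM for Tars, Rars, Fars2 and Qars, with a point for each of 4 KO (left) and 4 WT (right) libraries and mean ± SD in black, on axes that start at 0. The Tars and Rars ratios of KO lie above those of WT, Fars2 mRNA of KO lies below WT, and no difference passed edgeR's adjusted threshold.

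Fars2 (chr13:36117412-36726280, plus strand), the mitochondrial phenylalanyl enzyme, had the lowest p in mRNA. It had 14.5, 11.3, 11.6 and 12.5 CPM in KO libraries 1 to 4 and 15.4, 17.8, 15.7 and 17.6 in WT libraries 1 to 4, so every KO library was below every WT library. It was 1 of 37 members without overlap (2.70%), against 5.59% of all genes, or 2.74% with KO below. The log2 fold change was −0.41 ± 0.11 (SE), with an unadjusted p of 0.0034 and an adjusted p of 0.337 in edgeR and 0.0777 in DESeq2. Its footprints were 13.4, 14.2, 9.61 and 9.81 CPM in KO libraries 1 to 4 and 12.5, 10.9, 7.69 and 7.91 in WT libraries 1 to 4, and the change relative to mRNA was 0.78 ± 0.32 (adjusted p = 0.380 in edgeR). The direction in footprints was thus not that of the mRNA, on 5 to 35 counts per library. Fars2 shares 920 annotated bases with Nrn1 on the opposite strand, whose log2 fold change in mRNA was 0.36 ± 0.11 and in footprints −0.80 ± 0.21. Fars2 also shares 115 bases with Lyrm4 on the opposite strand, at −0.14 ± 0.12 in mRNA and 0.041 ± 0.39 in footprints. Whether the authors' counting used strand is not given in the sources used here, so reads of these genes may not be fully separated.

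Lars2 (chr9:123366927-123462666, plus strand), the mitochondrial leucyl enzyme, had 64.3, 57.7, 263 and 48.2 CPM of mRNA in KO libraries 1 to 4 and 49.8, 62.5, 51.4 and 44.8 in WT libraries 1 to 4. KO library 3 stood far above the other 7, which overlap. The log2 fold change was 1.06 ± 0.48 (SE, adjusted p = 0.475 in edgeR) and 0.13 without that library. Of 11421 genes averaging 100 or more counts, the 2 with the largest excess of KO library 3 over the highest other library were CT010467.1, an annotated ribosomal RNA gene on chromosome 17, and Lars2, at 5.92 and 4.15 times. CT010467.1 had 4678, 5287, 31783 and 3563 mRNA counts in KO libraries 1 to 4 and 4513, 5372, 5083 and 5314 in WT libraries 1 to 4, and its part in the Lars2 value was not tested. The Lars2 footprints of KO library 3 were not raised. They were 17.1, 28.0, 7.69 and 4.91 CPM in KO libraries 1 to 4 and 11.3, 10.9, 7.69 and 4.52 in WT libraries 1 to 4, for a log2 fold change of 0.86 ± 0.49 (adjusted p = 0.881 in edgeR), which was 0.22 without KO library 2. Without Lars2, mitochondrial mRNA fold changes ran between −0.41 for Fars2 and 0.13 for Mars2.

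**Figure D5:**
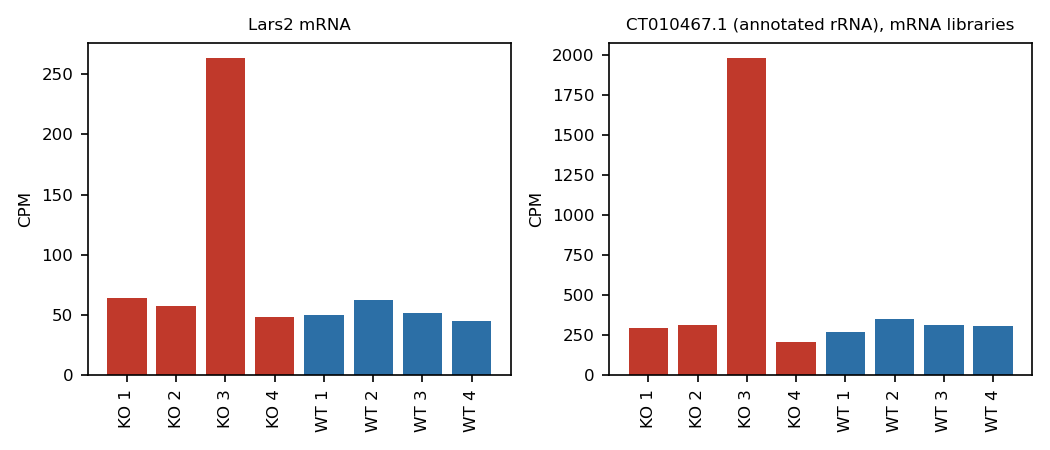
mRNA level in CPM of Lars2 (left) and of the annotated ribosomal RNA gene CT010467.1 (right) in KO libraries 1 to 4 (red) and WT libraries 1 to 4 (blue), on axes that start at 0. KO library 3 has 263 CPM of Lars2, and the other 7 libraries have 44.8 to 64.3.

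The remaining members with the lowest p in mRNA were Hars, Mars2 and Dars. Hars, on the cytosolic side, had 83.8, 78.1, 80.2 and 95.4 CPM in KO libraries 1 to 4 and 76.4, 76.5, 76.4 and 80.1 in WT libraries 1 to 4, with overlap and a log2 fold change of 0.12 ± 0.07, or 0.060 without KO library 4. Hars and the mitochondrial Hars2 lie head to head and share 198 bases at their starts. Mars2, the mitochondrial methionyl enzyme, had 32.0, 31.4, 38.2 and 28.7 CPM in KO libraries 1 to 4 and 29.5, 29.1, 31.9 and 28.7 in WT libraries 1 to 4, for 0.13 ± 0.09, or 0.045 without KO library 3. Dars, the aspartyl member of the complex, had 63.6, 59.2, 68.3 and 62.1 CPM in KO libraries 1 to 4 and 75.2, 76.9, 62.9 and 60.2 in WT libraries 1 to 4. The 2 high values were WT libraries 1 and 2, and the log2 fold change of −0.12 ± 0.09 was 0.040 without them. Of the 37 members, 20 overlap another annotated gene and 10 of these a coding gene on the opposite strand.

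Genes that work with the synthetases were examined as 4 lists, and none of their members passed the adjusted threshold of edgeR or DESeq2 in any comparison. Of the scaffold and cytosolic partners, 10 of 11 were tested in mRNA, 2 positive and 8 negative. Eef1a1, the factor that carries charged tRNA to the ribosome, had a log2 fold change of −0.27 ± 0.07 in mRNA (adjusted p = 0.337 in edgeR), and Eef1a2, its form in neurons and muscle, 0.15 ± 0.07. Of the mitochondrial partners, 12 of 12 were tested in mRNA, 9 positive and 3 negative. In footprints 8 of them were tested, 4 positive and 4 negative, with a median of −0.0099 and a highest value of 0.34. The 2 lowest of these were Gatb and Tufm. Gatb, a subunit of the amidotransferase that makes mitochondrial glutaminyl-tRNA, had 0.16 ± 0.08 in mRNA and −0.79 ± 0.38 in footprints, and Tufm, the mitochondrial elongation factor, 0.12 ± 0.09 and −0.70 ± 0.42. The 5 genes of selenocysteine charging were all negative in mRNA, led by Sepsecs at −0.21 ± 0.10, with a median of −0.089.

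The ATF4 amino acid response list held 24 genes, of which 21 were tested in mRNA, 15 positive and 6 negative, with a median of 0.080 against −0.0053 over all genes. At an unadjusted p under 0.05 stood Slc38a2, an amino acid transporter, at 0.24 ± 0.08, and Ddit4, a stress-induced inhibitor of mTORC1, at 0.35 ± 0.12 (SE, adjusted p = 0.363 and 0.406 in edgeR). These were 2 of 21 (9.52%), against 10.5% of all genes. In footprints 10 of 17 were positive, with a median of 0.083, and Psat1, an enzyme of serine synthesis, had the lowest p at −0.45 ± 0.15. Summed over the list, footprints were 741 ± 23.2 CPM in KO and 736 ± 44.2 in WT, and mRNA 1245 ± 5.20 CPM in KO and 1193 ± 76.6 in WT (SD, n = 4 each).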

How the data were processed

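Footprints and mRNA were measured in whole mouse brain, with 4 KO and 4 WT libraries of each kind. The deposited gene table holds raw counts, and 2 deposited tables hold RPKM made by the authors from gene length and their own library sizes. TopHat2 and mm10 are named without a role, per the submitters' processing notes; the counting program is not given in the sources used here. Members and lists were chosen with earlier results of these data known. Counts were fitted with edgeR 4.0.16 (R 4.3.3, TMM, quasi-likelihood), KO over WT, over all genes passing filterByExpr (footprints), a mean RPKM of at least 1 (mRNA) or that in both kinds (footprints relative to mRNA, the interaction of genotype and library kind). DESeq2 1.42.0, limma 3.58.1 on log2(RPKM + 0.1), limma-voom, other filters and library sizes, a replicate block and each library left out were the alternatives, limma-voom being added after seeing the data. The interaction model shares 1 spread between library kinds, and on simulated data it, and to a lesser extent the footprint test, made more false calls than the threshold allows, while limma-voom stayed near it. CPM are counts per mega-count of the TMM library size. The test for mRNA uses counts because the table held them. Members with values in every library are those with the 3 lowest p in each direction and test, any called, and the extremes of level and of the cytosolic over mitochondrial ratio. Intervals of a fold change are 95% intervals. Scripts used Python 3.11.15.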

Additional observations from a re-analysis of the deposited data

Results flagged for a closer look

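Among 132 groups of 4 libraries (members tested, KO and WT, footprints and mRNA), 6 had 1 library set apart by a gap, relative to the group's range, above Dixon's 95% critical value, and chance would give about 6.6. Lars2 mRNA was 263 CPM in KO library 3, against 48.2 to 64.3 in the other KO libraries. Hars2 footprints were 29.4 CPM in KO library 4, against 3.66 to 6.86. Farsb footprints were 111 CPM in KO library 1, against 57.7 to 59.9. Eprs mRNA was 88.2 CPM in KO library 1, against 97.0 to 98.8. Wars footprints were 116 CPM in WT library 1, against 101 to 103 in the other WT libraries. Hars mRNA was 80.1 CPM in WT library 4, against 76.4 to 76.5.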

How the results depend on the processing

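Among synthetases 0 were called in footprints and in mRNA under each of 16 alternatives, and in footprints relative to mRNA 1 (Tars, 0.73, adjusted p = 0.0476) under DESeq2 and 0 under the other 16, where the adjusted p of Tars ran up to 0.675. Over all genes the calls were 4 (DESeq2), 86 (no filter) and 3 (coding genes) in footprints, 87 (DESeq2), 24 (no filter) and 0 to 2 with 1 library left out (2 without KO library 4) in mRNA, and 144 (DESeq2), 2 (no filter), 1 (replicate block) and 0 to 4 with 1 library left out (4 without KO library 2) relative to mRNA, against 0 in each main test. The Dars mRNA change turned to 0.040 without WT libraries 1 and 2, and the cytosolic mRNA median of −0.045 was −0.013 without these, and −0.051 to −0.012 with 1 library left out (−0.012 without WT library 1). Without 1 library Lars2 ran between 0.13 and 1.30 in mRNA and between 0.22 and 1.17 in footprints, and Mars between −0.54 and −0.21 in footprints. The cytosolic median in footprints ran between −0.039 and 0.093 over its alternatives, on both sides of 0, as did its values relative to mRNA (−0.012 to 0.12) and the mitochondrial mRNA median (−0.0046 to 0.046). The other named gene changes kept their sign under every alternative run; the cause of the moves was not tested. Same-number KO and WT libraries correlated at −0.25 to 0.07 in footprints and −0.24 to 0.03 in mRNA. Such values cannot settle whether libraries of the same number share a preparation, and the main tests treated them as unpaired. The replicate block called 0 synthetases in each comparison. Footprint depth limits the mitochondrial members most, with a median of 4.5 counts in the shallowest KO library.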
